A study of Mus musculus with 43 samples.

Results

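The ribosomal protein processed pseudogenes counted in endothelial cells (EC) of the mouse brain were taken as every gene whose symbol is that of a cytosolic ribosomal protein gene followed by -ps and a number, with at least 10 counts summed over all libraries. Of 54532 genes in the count table, 284 had such a symbol and 149 reached 10 counts. The other 135 fell below it, 93 of them with no count at all. Just inside the limit stood Rpl23a-ps4 and Rpl23a-ps7 with 10 counts each, and just outside it Rpl13-ps6 and Rpl31-ps10 with 9 each. By symbol, the 149 pseudogenes are copies of 49 genes, called parents here (the symbol before -ps). GENCODE release M21 lists 138 of them as processed pseudogenes, 7 as transcribed processed pseudogenes and 4 as protein-coding genes. The transcripts of 4 did not align to their parent.

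EC that were CD31+ and CD45- CD11b- were sorted from cortex (21 libraries) or hippocampus (22 libraries) of 2-month-old mice that carried no treatment or engineered allele, and their rRNA-depleted total RNA was read from one end. The 5 long-inbred strains were 129S1/SvImJ (9 libraries), A/J (5), C57BL/6J (6), DBA/2J (5) and NOD/ShiLtJ (6), and the 2 wild-derived strains were CAST/EiJ (6) and WSB/EiJ (6). Female mice gave 16 libraries and male mice 27, with 6 of 9 libraries female in 129S1/SvImJ, 1 of 5 in A/J and in DBA/2J, and 2 of 6 in each of the other strains. The titles also carry a tag, high in 29 libraries and low in 14, which the labels do not define. It was high in 15 of 16 female and 14 of 27 male libraries. No label ties a library to its mouse, and every p below therefore reflects the spread among libraries, which may in part be technical. The counted reads per library ran from 1626534 to 49372356 with a median of 5790701. Levels are given as CPM, the count scaled to a common library size after TMM normalization. Markers of EC lay above those of every other cell type searched in 43 of 43 libraries, with a mean log2(CPM + 1) of 8.84 to 10.4 against 6.04 to 8.74 for pericytes, 5.81 to 8.69 for astrocytes and 0 to 2.77 for microglia. In these bulk libraries fewer cells of a type and less RNA per cell cannot be told apart.

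A processed pseudogene arises when the spliced mRNA of a gene is reverse transcribed and inserted back into the genome, so that the copy has no introns and usually no promoter of its own. Ribosomal protein genes, whose products build the small (Rps) and large (Rpl) subunits of the cytosolic ribosome, are transcribed at a high level in nearly every cell and have left many such copies. Because a copy can differ from its parent by few bases, a short read may align equally well to both, and strains that differ from the reference genome in the parent or in the copy can have their reads placed differently. The mm10 reference is the genome of C57BL/6J.

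The following stretches show how alike a copy and its parent can be. They are stretches as long as a read, from the transcripts of GENCODE release M21 on mm10, printed 5' to 3' with the bases at which copy and parent differ in capitals. Substitutions are numbered from 1 at the 5' end of the pseudogene transcript, with the base of the parent first.
Rps2-ps13 (chrX:52898588-52898712, + strand) and Rps2 differ at T60A and A84G in this stretch.
Rps2-ps13: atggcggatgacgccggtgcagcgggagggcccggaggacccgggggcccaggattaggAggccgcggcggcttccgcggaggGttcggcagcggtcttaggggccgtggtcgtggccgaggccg
Rps2: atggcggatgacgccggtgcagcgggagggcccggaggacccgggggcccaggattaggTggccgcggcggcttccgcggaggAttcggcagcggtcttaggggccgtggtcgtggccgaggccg
Rps12-ps10 (chr2:122219993-122220117, + strand) and Rps12 differ at C75A and G109A.
Rps12-ps10: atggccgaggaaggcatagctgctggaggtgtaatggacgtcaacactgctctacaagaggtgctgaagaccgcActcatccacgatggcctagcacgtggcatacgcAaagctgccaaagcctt
Rps12: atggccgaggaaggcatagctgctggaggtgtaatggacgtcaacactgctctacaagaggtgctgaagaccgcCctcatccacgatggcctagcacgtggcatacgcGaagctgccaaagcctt
Rps15-ps2 (chr6:58017615-58017739, + strand) and Rps15 differ at 6 positions, A159G, G187A, A192G, A201G, T219C and G234A.
Rps15-ps2: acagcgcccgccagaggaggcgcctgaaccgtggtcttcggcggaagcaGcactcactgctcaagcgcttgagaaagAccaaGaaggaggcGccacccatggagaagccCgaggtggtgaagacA
Rps15: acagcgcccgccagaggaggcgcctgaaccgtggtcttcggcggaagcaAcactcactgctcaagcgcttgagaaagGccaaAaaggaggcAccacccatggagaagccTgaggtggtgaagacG
Rpl34-ps1 (chr6:71124617-71124741, + strand) and Rpl34 differ at T132C, the last base of the stretch.
Rpl34-ps1: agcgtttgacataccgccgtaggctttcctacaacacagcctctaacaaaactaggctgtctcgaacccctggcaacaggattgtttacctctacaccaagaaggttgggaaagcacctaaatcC
Rpl34: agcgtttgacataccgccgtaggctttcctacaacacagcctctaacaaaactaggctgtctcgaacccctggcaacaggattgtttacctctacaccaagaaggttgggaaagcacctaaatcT
Rpl38-ps2 (chr6:140747048-140747172, - strand) does not differ from Rpl38, so the same letters stand for both.
Rpl38-ps2: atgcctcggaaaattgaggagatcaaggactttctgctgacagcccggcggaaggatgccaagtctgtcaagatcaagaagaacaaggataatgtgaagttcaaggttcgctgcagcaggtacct
Rps2-ps13, Rps12-ps10 and Rps15-ps2 were chosen for the smallest p in the test among strains described below. Rpl34-ps1 and Rpl38-ps2 were chosen for their high mean level, as was Rpl14-ps1, which is not shown. No read from the stretch of Rpl38-ps2 can tell the copy from its parent.

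Most of these pseudogenes were barely detected. The mean over 43 libraries was at least 10 CPM for 4 pseudogenes, 1 to under 10 CPM for 22, 0.1 to under 1 CPM for 70 and under 0.1 CPM for 53. More than 3 counts were found in at most 5 libraries for 88 pseudogenes and in no library for 2. Per library, 5 to 61 pseudogenes had more than 3 counts, with a median of 20. Rpl14-ps1, Rpl34-ps1 and Rpl38-ps2 held 53.1% of the 162812 counts on all pseudogenes. Rpl14-ps1 averaged 46.2 CPM and was the sole one with more than 3 counts in all 43 libraries. The median pseudogene averaged 0.303% of its parent's CPM, or 1.12% per kb of exon. The level of a pseudogene and that of its parent were all but unrelated across the 149 pairs (Spearman's rho = 0.068, given as a description, since copies of 1 parent share that parent's value). In mean CPM, Rps10-ps1 alone exceeded its parent, at 3.21 CPM against 0.519 CPM for Rps10, whose exons overlap those of the readthrough gene RPS10-NUDT3 on the same strand. Per kb of exon, Rps10-ps2 (435% of Rps10) and Rpl34-ps1 (203% of Rpl34) exceeded theirs too.

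How far a read can be assigned was described from the transcripts. Every window of the read length in each pseudogene was looked up, on either strand, in all other annotated transcripts. Windows found nowhere else made up 84.4% of the median pseudogene. All windows were unique in 40 pseudogenes, which held 8.71% of the pseudogene counts, some were unique in 90, which held 80.3%, and none was unique in 19, which held 11.01%. Rpl38-ps2 has no unique window and is identical to Rpl38 throughout, yet it had more than 3 counts in 41 libraries and averaged 13.7 CPM. In all, 14 pseudogenes were identical to their parent over the aligned stretch. How reads with several equally good alignments were counted, and whether strand was used, is not given in the sources used here. The lookup covers annotated transcripts only, not the rest of the genome.

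**Figure D1:**
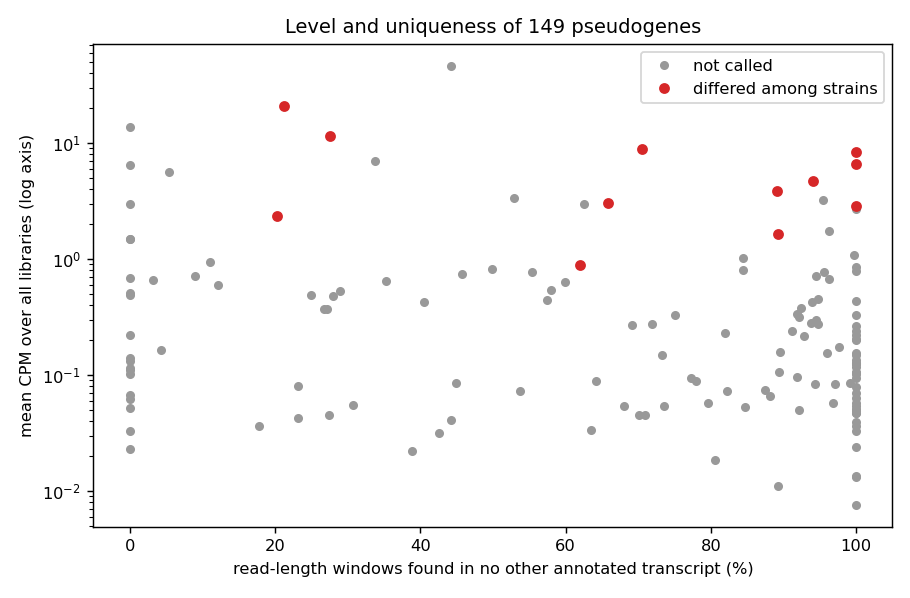
Each point is 1 of 149 pseudogenes, with the percent of its read-length windows found in no other annotated transcript on the horizontal axis and its mean CPM over 43 libraries on the vertical log axis; red marks the 12 that differed among strains. Pseudogenes with 0% unique windows reach 13.7 CPM (Rpl38-ps2), and none of them is red.

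Among the 7 strains, 12 of the 144 pseudogenes that passed the filter of 0.5 CPM in at least 1 library differed (adjusted p under 0.05, edgeR quasi-likelihood F-test, two-sided, Benjamini-Hochberg over all genes). That is 8.33%, against 2.68% of all 29120 genes tested and 2.61% (80 of 3069) of the other processed pseudogenes. A gene can pass this filter through 1 library of a strain in which it is high, so these shares are a description. Of the 49 parents 16 differed, and of 89 cytosolic ribosomal protein genes 27. The 12 were Rps2-ps13, Rps12-ps10, Rps15-ps2, Rps24-ps3, Rpl34-ps1, Rpl28-ps3, Rpl36-ps12, Rpl15-ps2, Rpl36-ps3, Rpl7-ps7, Rps13-ps1 and Rps15a-ps7. None of them belongs to the 19 pseudogenes without a unique window, 9 have some unique windows and 3 have unique windows throughout. The count depended on how edgeR estimates dispersion, since its older deviances called 62 pseudogenes and 13525 of all genes, while DESeq2 called 18. Within the 27 male libraries 7 pseudogenes were called. With every library drawn down to the smallest total, Rps13-ps1 (adjusted p = 0.0526) and Rps15a-ps7 (adjusted p = 0.285) were no longer called.

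**Figure D2:**
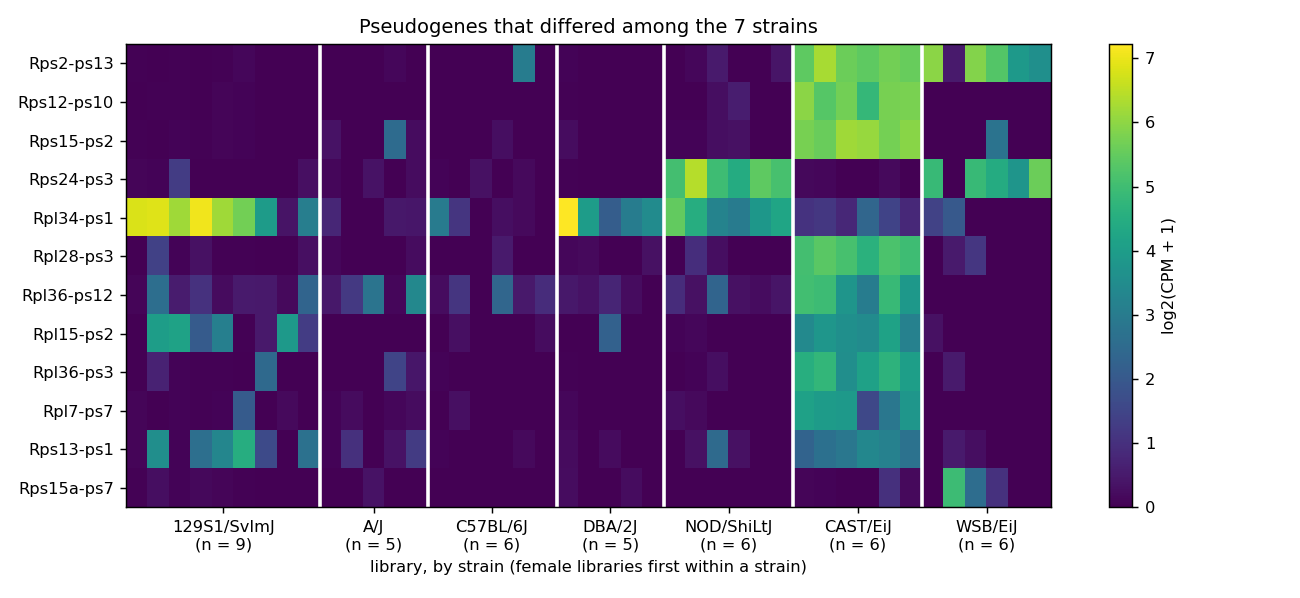
Level of the 12 pseudogenes that differed among strains, as log2(CPM + 1), in each of 43 libraries grouped by strain with female libraries first. CAST/EiJ libraries are high for 9 of the 12 pseudogenes, while Rps24-ps3 is high in NOD/ShiLtJ and in 5 of 6 WSB/EiJ libraries and Rpl34-ps1 in 129S1/SvImJ, DBA/2J and NOD/ShiLtJ.

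When each strain was set against the mean of the other 6, the 144 pseudogenes gave 25 calls, 22 higher and 3 lower, which fell on 16 pseudogenes. The mean is that of the fitted log levels of the 6 strains, so a log2 fold change is no ratio of mean CPM. Another strain can be higher still. In the WSB/EiJ contrast of Rps2-ps13, WSB/EiJ averaged 30.5 CPM and CAST/EiJ 50.9 CPM. The contrasts share libraries, so their calls are not independent of each other. CAST/EiJ had 10 pseudogenes higher (6.94%, background 0.975% of all genes) and 0 lower (background 0.378%). The other processed pseudogenes had 95 higher and 4 lower of 3069 in the same contrast. The median fitted log2 fold change in CAST/EiJ was 1.12 over the pseudogenes and -0.12 over all genes. With the 63 pseudogenes that had no library over 3 counts on one side set to their bound, it was 0.55, against 0 over all genes. The highest strain mean was that of CAST/EiJ for 40 of 144 pseudogenes (27.8%), as it was for 13.3% of all genes. The filter asks for 0.5 CPM in only 1 library, so a sparse gene can enter through the very strain in which it is highest. Rps12-ps10, for one, was at most 0.483 CPM outside CAST/EiJ. The count of highest means and the shares of genes called, here and in the other comparisons, are therefore descriptions only. WSB/EiJ had 5 pseudogenes higher (background 1.73%) and 1 lower (background 0.68%). 129S1/SvImJ had 4 higher (background 1.18%) and 1 lower (background 0.282%). NOD/ShiLtJ had 2 higher (background 0.148%) and 0 lower (background 0.0378%), and DBA/2J had 1 higher (background 0.127%) and 0 lower (background 0.0652%). A/J had 0 higher (background 0.213%) and 1 lower (background 0.0412%). C57BL/6J, the strain of the reference, had 0 higher (background 0.337%) and 0 lower (background 0.192%).

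**Figure D3:**
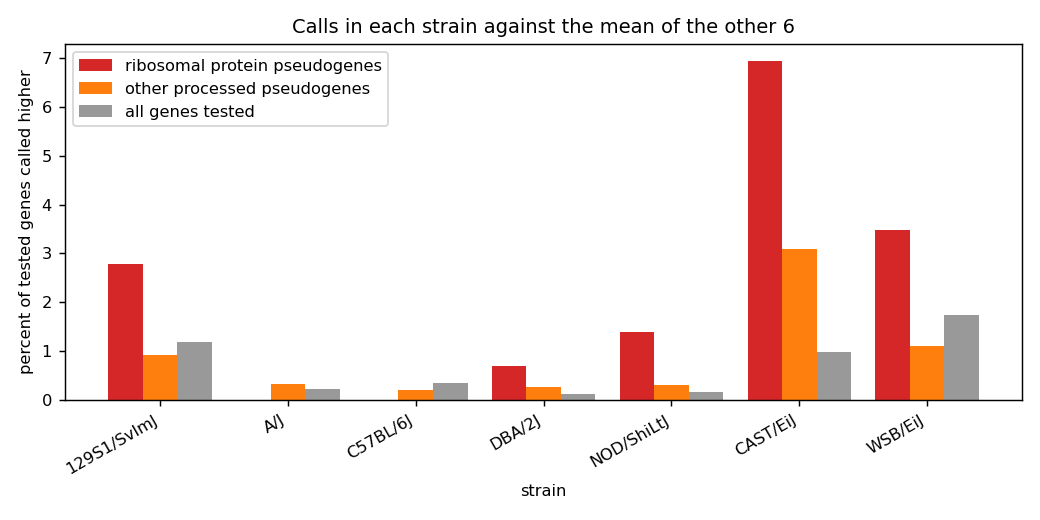
Percent of genes called higher in each strain against the mean of the other 6, for the 144 ribosomal protein pseudogenes, 3069 other processed pseudogenes and all 29120 genes tested. The tallest bar is that of the ribosomal protein pseudogenes in CAST/EiJ, 6.94% against 0.975% of all genes. Genes can have passed the filter through the strain in which they are high, so the bars are a description.

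A stricter reading asked in how many genes every library of a strain lay above every library of the other 6. In CAST/EiJ this held for 4 of 144 pseudogenes (2.78%), Rpl28-ps3, Rpl36-ps3, Rps12-ps10 and Rps15-ps2, and for 0.216% of all genes. Here too a gene can have passed the filter through the strain in which it is high. It held for 0 pseudogenes in 129S1/SvImJ (0.00343% of all genes), A/J (0.0172%), C57BL/6J (0.0103%), DBA/2J (0.00687%), NOD/ShiLtJ (0.00343%) and WSB/EiJ (0.024%). Summed over all 149 pseudogenes, the level was 329 to 452 CPM in the 6 CAST/EiJ libraries, with a median of 428, against a median of 165 over all 43. This sum overlapped that of 129S1/SvImJ (89.7 to 390 CPM) and DBA/2J (53.5 to 405 CPM). The highest library was at 136 CPM in A/J, 165 CPM in C57BL/6J, 232 CPM in NOD/ShiLtJ and 198 CPM in WSB/EiJ. The pseudogenes held 6.25% to 7.49% of the CPM of pseudogenes and parents together in CAST/EiJ, 3.70% to 6.31% in WSB/EiJ and at most 5.40% in any library of the long-inbred strains.

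Rps2-ps13 (gene identifier ENSMUSG00000081684) is a copy of the gene of a small subunit protein. It lies on the + strand of chrX:52898588-52899469 outside any other gene, is 99.2% identical to Rps2 with 7 mismatches over 882 bases, and 27.6% of its windows are unique, while 26.3% are shared with Rps2. In CAST/EiJ it was at 42.2, 77.1, 47.6, 42.0, 50.9 and 45.6 CPM. In WSB/EiJ it was at 61.6, 0.432, 57.5, 38.3, 14.1 and 11.04 CPM. In the 31 long-inbred libraries it was at most 0.423 CPM except in 1 male cortex library of C57BL/6J, which had 7.23 CPM (55 counts). So all CAST/EiJ libraries and 5 of 6 WSB/EiJ libraries lay above every long-inbred library. The log2 fold change against the other strains was 7.69 (SE 0.65, adjusted p = 2.07e-16) in CAST/EiJ and 6.83 (SE 0.65, adjusted p = 1.49e-13) in WSB/EiJ, by edgeR's quasi-likelihood test. 129S1/SvImJ was called lower, with a median of 0.0194 CPM (log2 fold change -4.25, SE 1.07, adjusted p = 0.0205), but this call was lost without DBA/2J replicate 1 (adjusted p = 1.0), without A/J replicate 4 (adjusted p = 1.0) and at an equal drawn depth (adjusted p = 1.0). The medians of A/J, C57BL/6J and DBA/2J were 0 CPM, so 129S1/SvImJ did not lie below these strains. In A/J, DBA/2J and NOD/ShiLtJ no library had more than 3 counts of Rps2-ps13.

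Its parent moved the other way. Rps2 was at 2.78 to 14.3 CPM in CAST/EiJ (median 4.80) and at 0.524 to 41.7 CPM in WSB/EiJ (median 5.71), while the long-inbred libraries lay between 13.1 and 83.3 CPM. Rps2 fell by 2.46 on the log2 scale in CAST/EiJ (SE 0.50, adjusted p = 9.48e-04, edgeR quasi-likelihood). In WSB/EiJ it was at -1.24 (SE 0.46, adjusted p = 0.153). Rps2-ps13 held 84.3% to 93.8% of the CPM of the pair in CAST/EiJ and 16.7% to 98.6% in WSB/EiJ. The 16.7% was 1 count in WSB/EiJ replicate 2, where the pair together reached only 2.59 CPM. In the other strains it held at most 0.794%, save for 12.9% in the C57BL/6J library named above. When the counts of Rps2 and of all 10 rows with an Rps2-ps symbol were summed before the fit, an alternative chosen after seeing the data, the strain difference of Rps2 (adjusted p = 4.04e-04) was no longer called (adjusted p = 0.829). The sum in CAST/EiJ was at 0.41 (SE 0.33, adjusted p = 0.864), and in WSB/EiJ at 0.09 (SE 0.34, adjusted p = 1.0).

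**Figure D4:**
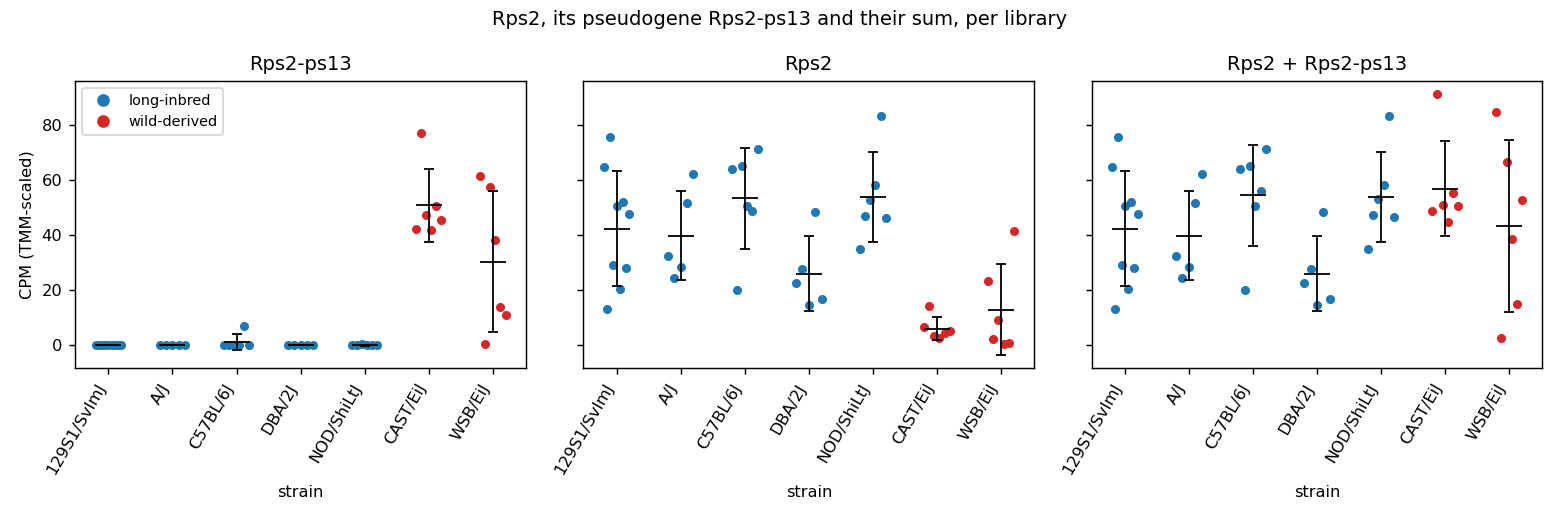
CPM of Rps2-ps13, of Rps2 and of their sum in each library by strain, with bars for the mean and SD. In CAST/EiJ the pseudogene lies at 42.0 to 77.1 CPM and Rps2 at 2.78 to 14.3 CPM, and the sum, 44.8 to 91.4 CPM, overlaps that of the long-inbred strains.

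Rps12-ps10, on the + strand of chr2:122219993-122220391 outside any other gene, differs from Rps12 by 4 bases of 399 (C75A, G109A, A231C and C294G) and all of its windows are unique. It was at 27.2 to 61.4 CPM in CAST/EiJ, with a median of 51.7 and 98 to 1549 counts. No library of another strain had more than 3 counts. CAST/EiJ was thus at least 81.2-fold higher than the other strains at a floor of 3 counts per library (strain adjusted p = 2.90e-15, edgeR quasi-likelihood). Rps12 itself rose in CAST/EiJ, at 44.2 to 112 CPM with a median of 89.7 (log2 fold change 1.12, SE 0.32, adjusted p = 0.0490). The copy held 25.7% to 39.7% of the CPM of the pair there. With Rps12 and its 24 pseudogene rows summed, the log2 fold change in CAST/EiJ was 1.77 (SE 0.29, adjusted p = 1.76e-05), and the sum differed among strains (adjusted p = 4.27e-04) where Rps12 alone did not pass (adjusted p = 0.127).

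Rps15-ps2, on the + strand of chr6:58017506-58017943 outside any other gene, differs from Rps15 by 10 bases of 438 and all of its windows are unique. It was at 47.0 to 72.0 CPM in CAST/EiJ with a median of 56.0. Elsewhere it was at most 0.288 CPM save for 1 A/J library at 4.73 CPM (50 counts) and 1 WSB/EiJ library at 5.77 CPM (11 counts), so that CAST/EiJ did not overlap any other strain. The log2 fold change in CAST/EiJ was 8.61 (SE 0.74, adjusted p = 8.39e-17, edgeR quasi-likelihood). The copy held 43.03% to 61.4% of the CPM of the pair in CAST/EiJ. Rps15 was at 41.2 to 68.5 CPM in CAST/EiJ (log2 fold change -0.66, SE 0.27, adjusted p = 0.356), and the sum was at 0.41 (SE 0.25, adjusted p = 0.616).

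The other 7 pseudogenes called higher in CAST/EiJ were lower in level. Rpl28-ps3 (chr4:126069867-126070259, - strand, in an intron of Oscp1 on the opposite strand) was at 23.4 to 40.3 CPM there and at most 1.63 CPM elsewhere (log2 fold change 7.80, SE 0.89, adjusted p = 3.96e-11, edgeR quasi-likelihood). Rpl36-ps3 (chr12:12912022-12912336, + strand, in an intron of the long noncoding RNA gene Gm40271) was at 10.97 to 26.5 CPM and at most 4.55 CPM elsewhere (7.76, SE 1.20, adjusted p = 1.52e-06). These pseudogenes did not overlap between CAST/EiJ and any other strain. Rpl36-ps12 (chr6:108140120-108140509, - strand, in an intron of Sumf1 on the same strand) was at 7.23 to 31.8 CPM in CAST/EiJ and up to 9.31 CPM in A/J (5.37, SE 0.81, adjusted p = 7.78e-07). Rpl7-ps7 (chr5:82336851-82337649, + strand) was at 1.95 to 16.6 CPM in CAST/EiJ and up to 3.18 CPM in 129S1/SvImJ (7.49, SE 1.20, adjusted p = 2.56e-06). Both overlapped other strains in at least 1 library. Rpl21-ps14 (chr8:4861169-4861651, + strand) was also called (5.60, SE 1.53, adjusted p = 0.0287), but not with sex and region as covariates (adjusted p = 0.0649) or with libraries drawn down (adjusted p = 0.456). Rpl15-ps2 and Rps13-ps1 are described with 129S1/SvImJ. The genes that hold Rpl28-ps3, Rpl36-ps12 and Rpl15-ps2 in an intron were not called among strains (adjusted p = 0.820 for Oscp1, 0.823 for Sumf1 and 0.973 for Tcf12). No result is given here for Gm40271, which holds Rpl36-ps3 on the same strand.

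Rps24-ps3, on the + strand of chrX:79195047-79195448 outside any other gene, differs from Rps24 by 4 bases of 402, and 70.5% of its windows are unique. It was at 20.8 to 84.3 CPM in the 6 NOD/ShiLtJ libraries, with a median of 33.0. In WSB/EiJ it was at 28.0, 0, 28.0, 20.97, 12.5 and 47.2 CPM. In the other 5 strains it was at most 0.282 CPM except for 1 library of 129S1/SvImJ at 1.41 CPM. NOD/ShiLtJ and 5 of 6 WSB/EiJ libraries thus lay above all libraries of the other 5 strains, with a log2 fold change of 7.58 in NOD/ShiLtJ (SE 0.68, adjusted p = 2.44e-14) and 6.60 in WSB/EiJ (SE 0.68, adjusted p = 2.07e-12), by edgeR's quasi-likelihood test. The copy held 11.9% to 37.7% of the CPM of the pair in NOD/ShiLtJ. Rps24 was at -0.36 in NOD/ShiLtJ (SE 0.20, adjusted p = 0.630), and the sum with its pseudogenes was at -0.02 (SE 0.20, adjusted p = 1.0). In WSB/EiJ Rps24 fell by 0.76 on the log2 scale (SE 0.21, adjusted p = 0.0324), and the sum was not called (-0.54, SE 0.20, adjusted p = 0.167). In CAST/EiJ, where the copy had at most 3 counts in any library, Rps24 rose by 1.04 (SE 0.18, adjusted p = 5.29e-05).

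The WSB/EiJ library that lacked both Rps2-ps13 (1 count) and Rps24-ps3 (0 counts) was replicate 2, from female cortex, with 2731954 counted reads. Rps2 was low in this library too, at 2.59 CPM together with Rps2-ps13. Cwc22, chosen after its values were seen, was at 1295 CPM in it and at 408 or more in all WSB/EiJ libraries, against at most 94.7 CPM in any other strain. The same library held 29.8 CPM (69 counts) of Rps15a-ps7 (chr2:152185291-152185682, - strand), which had more than 3 counts in 1 other WSB/EiJ library, replicate 3 (5.03 CPM, 25 counts), and was at most 1.01 CPM in the other strains. The WSB/EiJ call of Rps15a-ps7 (log2 fold change 7.12, SE 1.51, adjusted p = 0.00153, edgeR quasi-likelihood) was lost without replicate 2 (4.85, adjusted p = 0.221). The call among strains (adjusted p = 0.0408) was lost without that library (adjusted p = 0.833), without WSB/EiJ replicate 3 (0.0943), without DBA/2J replicate 1 (0.057) and without A/J replicate 1 (0.0631), and likewise with sex and region as covariates (0.281) and in libraries tagged high (0.0749). Rpl30-ps10 (2 WSB/EiJ libraries, at 9.27 and 19.0 CPM, adjusted p = 0.0166) and Rps15a-ps4 (1 WSB/EiJ library, at 14.4 CPM with 59 counts, at least 5.25-fold higher, adjusted p = 0.0386) rested on as few libraries, and with sex and region as covariates neither was called (adjusted p = 0.0939 and 0.372). Rpl36-ps12 had 0 counts in all 6 WSB/EiJ libraries and averaged 4.61 CPM over the other strains, so it was at least 3.82-fold lower (adjusted p = 0.0293). That average was carried by CAST/EiJ, at a mean of 20.5 CPM. The means of C57BL/6J (1.15 CPM), DBA/2J (0.302 CPM) and NOD/ShiLtJ (0.983 CPM) lay under the WSB/EiJ floor of 1.21 CPM. Those of 129S1/SvImJ (1.32 CPM) and A/J (3.41 CPM) lay above it. The WSB/EiJ call of Rpl36-ps12 was lost without any one of WSB/EiJ replicates 1, 2, 3 and 5 (adjusted p = 0.066, 0.0756, 0.0569 and 0.0518). Rpl36 fell too in WSB/EiJ, by 1.66 (SE 0.34, adjusted p = 0.00195).

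Rpl34-ps1, on the + strand of chr6:71124610-71124963 outside any other gene, differs from Rpl34 by 2 bases of 354 (T132C and C318G), and 21.3% of its windows are unique. It was at 0.290 to 133 CPM in 129S1/SvImJ, with a median of 71.5. In DBA/2J it was at 148, 15.0, 3.39, 7.25 and 10.2 CPM, and in NOD/ShiLtJ at 7.01 to 44.2 CPM with a median of 15.5. These strains were high, although 129S1/SvImJ overlapped all others. The remaining strains were low, with 0.720, 0, 0, 0.378 and 0.351 CPM in A/J, 0 to 7.06 CPM in C57BL/6J, 0.748 to 4.17 CPM in CAST/EiJ and 0 to 3.03 CPM in WSB/EiJ. The log2 fold change was 4.505 in 129S1/SvImJ (SE 0.49, adjusted p = 1.01e-10), 3.58 in DBA/2J (SE 0.55, adjusted p = 1.68e-05) and 2.44 in NOD/ShiLtJ (SE 0.56, adjusted p = 0.0262), by edgeR's quasi-likelihood test. The DBA/2J call rested on replicate 1, the female library at 148 CPM, without which it was lost (1.55, adjusted p = 0.548). The NOD/ShiLtJ call was lost in libraries tagged high (2.53, adjusted p = 0.0903). A/J was called lower (-4.24, SE 1.03, adjusted p = 0.0419), a call lost without any one of its 5 libraries (adjusted p = 0.0603 to 0.210), without DBA/2J replicate 1 (0.078) and without WSB/EiJ replicate 1 (0.0519). Rpl34 differed in no contrast between a strain and the others, with -0.30 in 129S1/SvImJ (SE 0.29, adjusted p = 0.719), -0.95 in DBA/2J (SE 0.39, adjusted p = 0.478) and -0.48 in NOD/ShiLtJ (SE 0.35, adjusted p = 0.884). Rpl34-ps1 held up to 68.6% of the CPM of the pair in 129S1/SvImJ, 55.2% in DBA/2J and 52.8% in NOD/ShiLtJ.

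The strains 129S1/SvImJ and CAST/EiJ shared the calls of 2 pseudogenes. Rpl15-ps2 (chr9:72060937-72061549, + strand, in an intron of Tcf12 on the opposite strand) was at 8.06 to 16.8 CPM in CAST/EiJ (log2 fold change 6.31, SE 1.04, adjusted p = 9.50e-06) and at 0 to 16.9 CPM in 129S1/SvImJ, with a median of 3.23 (5.36, SE 0.98, adjusted p = 2.56e-04, edgeR quasi-likelihood). Rps13-ps1 (chr8:87047689-87048226, + strand) was at 3.97 to 9.17 CPM in CAST/EiJ (4.27, SE 1.04, adjusted p = 0.00848) and at 0 to 21.8 CPM in 129S1/SvImJ, with a median of 5.21 (4.18, SE 0.97, adjusted p = 0.00739). Their spread in 129S1/SvImJ reached down to 0. In that strain Rps13-ps1 was not called with sex and region as covariates (4.18, adjusted p = 0.145) or in male libraries (2.78, adjusted p = 0.503). Of their parents, Rpl15 was at 0.83 in CAST/EiJ (adjusted p = 0.504) and 0.07 in 129S1/SvImJ (adjusted p = 1.0), and Rps13 was at 0.48 (adjusted p = 1.0) and -0.92 (adjusted p = 0.485). Rpl14-ps1 was higher in 129S1/SvImJ (1.24, SE 0.31, adjusted p = 0.0207), as was Rpl14 (1.47, SE 0.29, adjusted p = 0.00156), in a strain with 6 of 9 libraries from female mice. With sex and region as covariates Rpl14-ps1 was not called there (0.57, adjusted p = 0.461). Rpl14-ps1 did not pass in the test among all strains (adjusted p = 0.0893).

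Over the 25 calls, the parent had the opposite sign 17 times and the same sign 8 times. This tally is a description, since calls share libraries and parents and the signs of all parents leaned by strain. Of the 49 parents, the fitted log2 fold change was above 0 for 41 in CAST/EiJ, 31 in 129S1/SvImJ and 29 in NOD/ShiLtJ. It was above 0 for 24 in A/J, 11 in DBA/2J and 4 in WSB/EiJ. The parent itself was called in 5 of the 25 calls, with the opposite sign for Rps2 in CAST/EiJ and Rps24 in WSB/EiJ, and with the same sign for Rps12 in CAST/EiJ, Rpl14 in 129S1/SvImJ and Rpl36 in WSB/EiJ. With each parent summed with all of its -ps rows, which left 28972 genes to test and a background of 2.64% among strains, 15 of the 16 parents called among strains were still called. Rps2 was lost and Rps12 was gained. In the contrasts of 1 strain, the parent call was lost for Rpl13 in 129S1/SvImJ, Rps2 in CAST/EiJ and Rps24 in WSB/EiJ, and none was gained. The 8 called pseudogenes that lie outside any other gene, 2 in an intron on the same strand and 2 in an intron on the opposite strand came from 87, 22 and 31 pseudogenes at such positions.

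Between wild-derived and long-inbred strains, 7 pseudogenes were higher (background 0.508% of all genes) and 1 was lower (background 0.24%) in wild-derived EC, or 5.56% of 144. The higher ones were Rps12-ps10, Rps2-ps13, Rps15-ps2, Rpl28-ps3, Rpl36-ps3, Rpl36-ps12 and Rpl7-ps7. Of these, Rps12-ps10, Rpl36-ps12 and Rpl7-ps7 had 0 counts in all 6 WSB/EiJ libraries, so they were high in CAST/EiJ and not in both wild-derived strains. Rps2-ps13 was at 0.432 to 77.1 CPM with a median of 43.9 in the 12 wild-derived and at 0 to 7.23 CPM with a median of 0 in the 31 long-inbred libraries (log2 fold change 7.21, SE 0.78, adjusted p = 9.46e-12, edgeR quasi-likelihood). Rps12-ps10 was at least 53.3-fold higher in wild-derived libraries, through CAST/EiJ alone. The 12 wild-derived libraries held 0 to 72.0 CPM of Rps15-ps2 (7.02, SE 0.81, adjusted p = 1.03e-10) and 0 to 40.3 CPM of Rpl28-ps3 (6.57, SE 0.86, adjusted p = 1.02e-08). With WSB/EiJ as the only wild-derived strain, Rps15-ps2 was at 2.16 (adjusted p = 0.802), Rpl28-ps3 at 0.86 (adjusted p = 0.899) and Rpl36-ps3 at -1.67 (adjusted p = 0.835), and 3 pseudogenes were called. With counts summed per strain, 2 strains against 5, 2 pseudogenes were called. Rpl34-ps1 was the one called lower, at 0 to 4.17 CPM with a median of 0.919 against 0 to 148 CPM with a median of 7.56 (log2 fold change -4.53, SE 0.89, adjusted p = 0.00103). This call was lost in male libraries (-2.53, adjusted p = 0.836), with counts summed per strain (adjusted p = 0.741) and when CAST/EiJ alone stood for the wild-derived strains (-4.21, adjusted p = 0.0866). Among long-inbred strains A/J, at no more than 0.720 CPM, and C57BL/6J, with a median of 0.172 CPM, were low too. Of the parents, Rps2 fell by 2.21 (SE 0.37, adjusted p = 8.35e-05) and Rpl36 by 1.05 (SE 0.26, adjusted p = 0.0264). Neither was called once summed with its pseudogenes (0.24, adjusted p = 0.761 and -0.47, adjusted p = 0.761).

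Between female and male libraries, 2 pseudogenes were higher (background 2.56% of all genes) and 0 lower (background 0.292%) in female EC, 1.39% of 144, while 25 of 89 ribosomal protein genes and 11 of 49 parents were higher and 0 lower. The median of counted reads was 21242058 for female mice and 5257353 for male mice. Reads on rRNA-like genes made up 1.59% to 12.1% of female and 13.0% to 29.3% of male libraries. Rpl14-ps1, on the + strand of chr7:45324965-45325617 in an intron of Trpm4 on the opposite strand, was at 15.4 to 172 CPM in female libraries with a median of 80.7, and at 9.85 to 53.3 CPM in male libraries with a median of 23.9 (log2 fold change 1.72, SE 0.23, adjusted p = 1.64e-07, edgeR quasi-likelihood). Its parent Rpl14 differed by 1.99 (SE 0.20, adjusted p = 1.03e-11). Rpl34-ps1 was at 0.720 to 148 CPM with a median of 32.8 in female and at 0 to 17.9 CPM with a median of 0.748 in male libraries (log2 fold change 3.55, SE 0.59, adjusted p = 1.17e-05), and Rpl34 differed by 0.86 (SE 0.24, adjusted p = 0.0305). With every library drawn down to the smallest total, the sexes differed by 1.56 for Rpl14-ps1 (adjusted p = 7.07e-08) and by 3.40 for Rpl34-ps1 (adjusted p = 1.03e-16). In libraries tagged high they differed by 1.49 (adjusted p = 4.80e-04) and 3.38 (adjusted p = 0.00342). The part of the rRNA-like share in these differences was not tested.

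Within strains, every female library lay above every male library of its strain for Rpl34-ps1 in 129S1/SvImJ (50.01 to 133 against 0.290 to 14.5 CPM), NOD/ShiLtJ (21.5 and 44.2 against 7.01 to 17.9 CPM), C57BL/6J (1.18 and 7.06 against at most 0.212 CPM) and WSB/EiJ (1.71 and 3.03 against 0 CPM). The single female library of A/J (0.720 CPM) and of DBA/2J (148 CPM) also lay above the male ones. Some of these values rest on few counts. The 1.18 CPM in C57BL/6J was 5 counts, and each female value in WSB/EiJ was 7 counts. In A/J the female library had 15 counts and the highest male library 4. In CAST/EiJ the sexes overlapped, at 1.07 and 1.24 CPM in female and 0.748 to 4.17 CPM in male libraries. For Rpl14-ps1 the sexes were apart in 129S1/SvImJ (77.4 to 172 against 23.2 to 32.2 CPM), C57BL/6J (91.4 and 97.8 against 10.96 to 36.5 CPM), DBA/2J (124 against 14.7 to 46.1 CPM) and NOD/ShiLtJ (30.6 and 49.96 against 12.1 to 23.9 CPM). They overlapped in A/J, CAST/EiJ and WSB/EiJ. In the 27 male libraries alone, Rpl34-ps1 was not called in 129S1/SvImJ (log2 fold change 3.40, adjusted p = 0.151), DBA/2J (3.73, adjusted p = 0.123) or NOD/ShiLtJ (4.15, adjusted p = 0.0569).

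**Figure D5:**
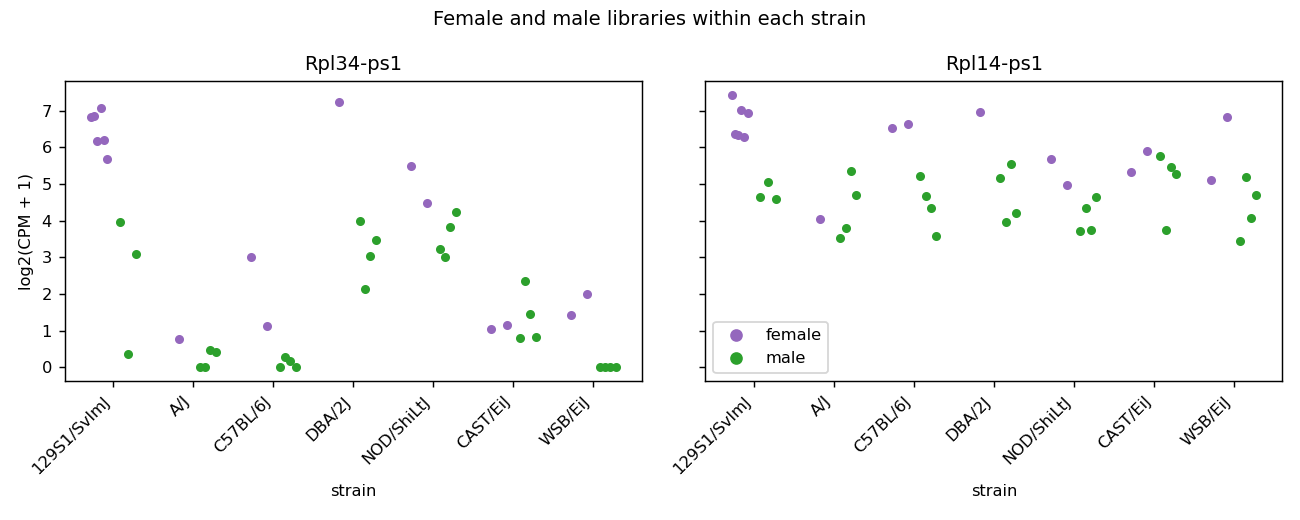
Level of Rpl34-ps1 and Rpl14-ps1, as log2(CPM + 1), in each female and male library by strain. For Rpl34-ps1 the female libraries lie above the male ones in every strain but CAST/EiJ, and for Rpl14-ps1 the sexes overlap in A/J, CAST/EiJ and WSB/EiJ.

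Between hippocampus and cortex, 0 of 144 pseudogenes were called (background 0.0755% of all genes) by edgeR's quasi-likelihood test, with 2 at an unadjusted p under 0.05, and 0 by DESeq2, with 6. The smallest p was that of Rps15a-ps4, counted in 1 WSB/EiJ hippocampus library (adjusted p = 0.669), and the spread of so sparse counts limits what a comparison of regions can show.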

How the data were processed

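The deposited values are raw counts per gene, which the authors made by aligning single-end reads of a stranded SMARTer total RNA library to mm10 with HISAT2 2.1.0 in the bcbio pipeline, sorting with SAMtools 1.9 and counting with featureCounts (Subread 1.4.4). The tool versions are from the submitters' processing notes. Their handling of multiply aligned reads and of strand is not given in the sources used here.

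The test took every gene that reached 0.5 CPM in any 1 library, in edgeR 4.0.16 in R 4.3.3 (TMM scaling, trended dispersion, quasi-likelihood F-tests with bias-adjusted deviances, no covariates, adjustment by Benjamini-Hochberg over all genes, threshold 0.05). The 7 strains were tested together, then each against the mean of the fitted log levels of the other 6. Origin, sex and region were each tested in a fit of their own. The steps were tested on simulated data. DESeq2 1.42.0 and the settings of the closing section were alternatives. CPM use TMM-scaled library sizes, and counted reads per library ran from 1626534 to 49372356. A fold against libraries with no more than 3 counts is given as a bound. Unlike the fitted folds, it is the mean CPM of the higher side over a floor of 3 counts per library. GENCODE M21 matched 54495 of 54532 genes and 149 of 149 pseudogenes. Copies were aligned to parents with BLAST 2.17.0 (e-value 1e-05).

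The pseudogenes and gene lists were chosen with earlier results of these data known. Named pseudogenes are the 12 of smallest p among strains, up to 3 called per direction in each strain, the 5 of smallest p per direction for origin, the 3 per direction for sex and for region, the 8 of highest mean level, and Rps12-ps10, each with its parent. Rpl21-ps14 lies outside this rule and is named so that every call is accounted for.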

Additional observations from a re-analysis of the deposited data

Results flagged for a closer look

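For 15 pseudogenes, 70 groups were examined, each made of the 5 to 9 libraries of 1 strain. Not every strain was examined for each pseudogene. Of these groups, 28 held a library that lay far from the rest by Dixon's ratio. All 28 were the highest library of their strain, and 15 were female. Chance picks about 1 group in 20 where values are normally distributed. These are sparse counts with many values at or near 0, so the 28 cannot be read against that rate.

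In 129S1/SvImJ the far libraries held 0.10002 CPM of Rps2-ps13 (4 counts, next 0.0347 CPM), 1.41 CPM of Rps24-ps3 (next 0.236), 1.63 CPM of Rpl28-ps3 (next 0.252), 4.55 CPM of Rpl36-ps3 (11 counts, next 0.612), 3.18 CPM of Rpl7-ps7 (next 0.145) and 21.8 CPM of Rps13-ps1 (next 10.8). Replicate 6, from female hippocampus, was the far one for 3 of them.

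In DBA/2J they held 148 CPM of Rpl34-ps1 (next 15.0), 124 CPM of Rpl14-ps1 (next 46.1), 0.179 CPM of Rps15-ps2 (10 counts, next 0), 0.0895 CPM of Rpl7-ps7 (5 counts, next 0) and 3.73 CPM of Rpl15-ps2 (22 counts, next 0.0179). Replicate 1, the female hippocampus library, was the far one for 4 of them.

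In A/J, 1 male hippocampus library, replicate 4, held 4.73 CPM of Rps15-ps2 (next 0.288) and 1.80 CPM of Rpl36-ps3 (next 0.351). In C57BL/6J the far values were 7.23 CPM of Rps2-ps13 (55 counts, next 0), 7.06 CPM of Rpl34-ps1 (next 1.18) and 4.23 CPM of Rpl36-ps12 (20 counts, next 1.18). In NOD/ShiLtJ they were 84.3 CPM of Rps24-ps3 (next 42.1), 0.926 CPM of Rpl28-ps3 (next 0.211), 4.02 CPM of Rpl36-ps12 (next 0.878) and 4.65 CPM of Rps13-ps1 (next 0.244).

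In CAST/EiJ they were 77.1 CPM of Rps2-ps13 (next 50.9), 4.17 CPM of Rpl34-ps1 (15 counts, next 1.73) and 1.01 CPM of Rps15a-ps7 (7 counts, next 0.128). In WSB/EiJ they were 5.77 CPM of Rps15-ps2 (11 counts, next 0), 1.21 CPM of Rpl28-ps3 (6 counts, next 0.432), 29.8 CPM of Rps15a-ps7 (next 5.03), 113 CPM of Rpl14-ps1 (next 35.7) and 4.19 CPM of Rpl23a-ps3 (8 counts, next 1.22).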

How the results depend on the processing

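The numbers of pseudogenes called rested most on how edgeR estimates dispersion. With its older deviances 62 in place of 12 were called among strains, 111 in place of 25 strain by strain and 45 in place of 8 for origin, while over all genes 13525 in place of 781 and 6712 in place of 218 were called. In male libraries alone the counts were 7, 11 and 4. For origin, 2 were called with counts summed per strain and 3 with WSB/EiJ as the only wild-derived strain, where Rpl36-ps3 turned to -1.67 (adjusted p = 0.835). Leaving out 1 library was run for the A/J, DBA/2J and WSB/EiJ libraries only, and gave 11 to 12 among strains, 22 to 26 strain by strain and 7 to 9 for origin. For sex (2) and region (0) it was run for A/J, DBA/2J and WSB/EiJ replicate 4. DESeq2 gave 18, 10, 2 and 0 for strains, origin, sex and region. The strain-by-strain fits with older deviances and male libraries, and those without a WSB/EiJ library, were chosen after seeing the data. With sex and region as covariates 19 in place of 25 were called strain by strain. Lost were Rps13-ps1, Rpl14-ps1 and Rps2-ps13 in 129S1/SvImJ (adjusted p = 0.145, 0.461 and 0.0785), Rpl21-ps14 in CAST/EiJ (0.0649) and Rpl30-ps10, Rps15a-ps4 and Rpl36-ps12 in WSB/EiJ (0.0939, 0.372 and 0.073), as was Rps15a-ps7 among strains (0.281). Gained was Rpl34-ps1, lower in WSB/EiJ (0.0122). For origin, Rpl36-ps12 and Rpl7-ps7 were lost in libraries tagged high (0.0764 and 0.0843) and drawn down (0.0578 and 0.0523). The median level against the parent was 0.303% per gene and 1.12% per kb, and the median share of unique windows was 84.4%, 58.9% and 37.5% for windows of the read length, 75 and 50 bases. The cause of these changes was not tested. Male libraries and summed counts hold fewer samples, and male libraries also differ from female ones in depth and rRNA-like share. Over all results, 1510 alternatives kept the direction and side of the threshold or a count within 1.5 times, 58 lost a call, 2 gained one, 64 moved a value and 1 turned its direction. Low counts limit most pseudogenes. No paired analysis was possible because replicate numbers were given in accession order and pair no libraries.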

Other observations

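Gm8172 and Gm10709 are ribosomal protein pseudogenes whose symbols do not follow the -ps pattern. They were picked because the paper, from these same libraries, lists both as examples of deregulated pseudogenes in its comparison by origin. A difference among strains was thus built into the choice and is no separate evidence. Both were called among strains (adjusted p = 1.30e-24 and 2.35e-12, edgeR quasi-likelihood). No share called is given here for other ribosomal protein pseudogenes without a -ps symbol. The log2 fold change in CAST/EiJ against the other strains was 10.16 for Gm8172 (adjusted p = 6.62e-27) and 9.12 for Gm10709 (adjusted p = 1.08e-14).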
